A study of Homo sapiens with 9 samples.

Results

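MTRNR2L1, MTRNR2L2 and MTRNR2L8 are nuclear copies of the mitochondrial 16S rRNA gene, MT-RNR2. In these data, short RNA fragments listed at them lay almost wholly on the strand that runs in the direction of the 16S rRNA. A single short peak held most reads at MTRNR2L1 and at MTRNR2L8. Of the reads in these peaks, 99.5% at MTRNR2L1 and 95.8% at MTRNR2L8 had an exact match in the mitochondrial genome. Only 5.89% and 9.64% of them had a single nuclear match. The fragments were taken as every listed alignment of either strand that lies within the intervals chr17:22022437-22023991 (plus strand, MTRNR2L1), chr5:79945819-79946855 (minus strand, MTRNR2L2) and chr11:10529434-10530723 (minus strand, MTRNR2L8) of GRCh37 (hg19). In all, 3818 of 3688019 alignments fulfilled this rule. The copies had been chosen because earlier results of the same values showed abundant fragments there, so their levels are given as a description and without a test.

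Small RNA was profiled in 3 batches of K562 cells, a line from chronic myelogenous leukemia that resembles early red blood cells, which was kept in RPMI medium with serum and received no treatment. Total RNA was made into libraries, and inserts of 20 to 40 nt were selected on a gel. The 3 batches are pooled in the values used here, so no value has a replicate error, and the 95% Wilson intervals below cover counting error only. The study also has 6 samples of HEK293 cells that carried vectors for small non-coding RNAs (sncRNAs), which were not analysed here.

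Each value is a number of reads at 1 combination of start, end and strand. The deposited read number is a multiple that grows with the number of similar alignments, and division by the number of near neighbours (alignments of one strand whose ends differ by 3 nt or less in sum, itself included) gave a whole number at 1246133 of 1246133 alignments that have a neighbour. The division is inferred from the values and is not stated in the methods. The recovered reads, called reads below, sum to 47670688, while the RPKM values have a denominator of 54140681 reads. The values list 24 chromosomes, and none of the alignments lies on the mitochondrial chromosome. Of the genes that mark K562, HBG1 had 357 reads on its exons, HBG2 366, HBE1 322, TFRC 433 and GATA1 32.

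Copies of mitochondrial DNA have entered the nuclear genome many times, and such inserts are known as nuclear mitochondrial DNA segments. The 16S rRNA is part of the large subunit of the mitochondrial ribosome. A short reading frame within it encodes humanin, a peptide known for protection of cells from death, and the MTRNR2L genes are named for humanin-like reading frames. Because the nuclear copies resemble the mitochondrial gene, a short fragment can match both equally well.

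The sequences below show what the fragments are made of. They are the reference bases of GRCh37 at each alignment, 5′ to 3′ on the gene strand, and the bases of the reads themselves are not part of the values used here. The first set holds the most abundant fragments of each copy, and capitals mark the stretch that overlapping fragments of one copy share.
MTRNR2L1, chr17:22023782-22023796, 6075 reads: tAAAGGTTCGTTTGT
MTRNR2L1, chr17:22023779-22023796, 3215 reads: tattAAAGGTTCGTTTGT
MTRNR2L1, chr17:22023783-22023796, 1430 reads: AAAGGTTCGTTTGT
MTRNR2L8, chr11:10529590-10529604, 3309 reads: AAAATTTCGGTTGGG
MTRNR2L8, chr11:10529590-10529605, 3139 reads: aAAAATTTCGGTTGGG
MTRNR2L2, chr5:79946703-79946723, 188 reads: aAGCATAATATAGCAAGGACT
MTRNR2L2, chr5:79946703-79946722, 64 reads: AGCATAATATAGCAAGGACT
MTRNR2L2, chr5:79946411-79946431, 77 reads: aggaacagctctttggacact

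Every sequence of this first set also occurs without a difference in the mitochondrial genome. The second set holds the most abundant fragments whose reference sequence is found at that copy alone, with no exact match in the mitochondrial genome and 1 exact match in the nuclear genome. Here capitals mark the bases that differ from the mitochondrial 16S gene.
MTRNR2L1, chr17:22023745-22023771, 47 reads: atgttggatcaggacatcccAatggtg
MTRNR2L1, chr17:22022583-22022607, 45 reads: aggacAaacccctataccttctgca
MTRNR2L2, chr5:79946684-79946708, 58 reads: aggactaacccctGtaccttctgca
MTRNR2L2, chr5:79946684-79946709, 13 reads: aaggactaacccctGtaccttctgca
MTRNR2L8, chr11:10529571-10529597, 47 reads: cggttggggcgacctcggagcaCaaTc
MTRNR2L8, chr11:10529570-10529597, 39 reads: cggttggggcgacctcggagcaCaaTcc

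In this second set, the shorter fragment of MTRNR2L1 and both of MTRNR2L2 end at the same base of the 16S gene, position 183, and are set apart by which base is in capitals. The longer fragment of MTRNR2L1 lies just before the most abundant peak of that copy, and those of MTRNR2L8 overlap the most abundant peak of theirs.

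The 3 copies represent different parts of the 16S gene, whose positions are counted here from 1 at its 5′ end to 1559. MTRNR2L1 is 1555 nt long and reaches from position 13 to the end of the gene, with 89.5% identity over aligned bases and 162 differing bases. MTRNR2L2 is 1037 nt long, covers positions 12 to 1037 in a global alignment and is 94.6% identical, with 55 differing and 13 inserted bases. In the search for nuclear 16S stretches described below, its match ended at position 1027. MTRNR2L8 is 1290 nt long, covers positions 13 to 1302 and is 93.3% identical, with 87 differing bases. MTRNR2L2 is thus the shortest copy and the one closest to the mitochondrial gene. In GENCODE release 44 on GRCh37, MTRNR2L1 is a protein-coding gene of a single exon, and its most abundant fragments lie in the 3′ UTR. MTRNR2L2 and MTRNR2L8 have no entry there, and their intervals are those of the rule.

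The surroundings of MTRNR2L8 and MTRNR2L1 differ as well. The mitochondrial insert around MTRNR2L8 spans chr11:10529434-10531883, and the 1000 nt on its sides held 6 and 1 reads. Few reads thus lay beyond the mitochondrial sequence there. The insert itself held 35231 reads on the gene strand, of which 17549 lay within the copy. The insert around MTRNR2L1 is longer, chr17:22021361-22032092, and had 1457 reads in the 1000 nt on one side and 0 on the other. This insert held 20058 reads on the gene strand, of which 17787 lay within the copy.

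MTRNR2L1 and MTRNR2L8 had similar numbers of reads and MTRNR2L2 had fewer. On the gene strand, MTRNR2L1 had 17787 reads in 1092 alignments, or 11439 reads per kb. MTRNR2L8 had 17549 reads in 1333 alignments, or 13604 reads per kb. MTRNR2L2 had 3728 reads in 1274 alignments, or 3595 reads per kb. MTRNR2L2 was therefore as rich in different fragments as the other copies, but with fewer reads per fragment. By reads, the most abundant alignment stood at rank 519 of 3688019 at MTRNR2L1, 775 at MTRNR2L8 and 9036 at MTRNR2L2. By RPKM, which scales the deposited, undivided read number by alignment length and depth, the highest values were 142130, 73342 and 2315, at ranks 341, 540 and 6366. Alignments of both strands at the 3 copies held 39388 reads, or 0.0826% of all reads.

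The strand of the 16S rRNA held 99.2% of reads at MTRNR2L1 (95% interval 99.1 to 99.4), 99.3% at MTRNR2L2 (99.0 to 99.5) and 99.1% at MTRNR2L8 (98.9 to 99.2). Over the whole series, 63.5% of reads lay on the plus strand of the genome, which is not a share by gene strand. The opposite strand of the copies had 135 reads at MTRNR2L1, 27 at MTRNR2L2 and 162 at MTRNR2L8. At MTRNR2L1, 101 of the opposite-strand reads covered position 717 of the 16S gene, and the 5 most abundant alignments all had their 5′ end on this base. At MTRNR2L8, 99 opposite-strand reads covered position 717, and the 4 most abundant alignments began there. MTRNR2L2 had no read of the opposite strand at position 717. The sequences of these most abundant alignments match the mitochondrial genome exactly and occur at 4 nuclear places each. For them, the 5′ end at position 717 is therefore not an independent observation at each of the copies. At MTRNR2L1, longer alignments of 27 and 26 nt with the same 5′ end had 3 and 8 reads. Their sequences have no exact mitochondrial match and 1 nuclear match.

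The plot of depth along the 16S gene shows that the peaks of the copies stood at different places. At MTRNR2L1, the alignments over the middle of the most abundant fragment had 14420 reads, or 81.1% of the gene strand (80.5 to 81.6), and the most abundant fragment covered positions 1357 to 1371. The 3′ end was sharp, with 81.5% of these reads ending at position 1371, and the 5′ end was looser, with 47.3% of reads at position 1357. A fragment of 14 nt, present in all 3 of the sequences shown for this peak, is the common core. Neither MTRNR2L2 nor MTRNR2L8 reaches this part of the 16S gene.

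At MTRNR2L8, the most abundant peak had 14030 reads, or 79.9% of the gene strand (79.3 to 80.5). Position 1146 was the 3′ end of 66.1% of its reads, and position 1131 was the 5′ end of 34.0%. MTRNR2L1 holds the same stretch with 1 differing base, and 605 reads covered its middle base there, against 13874 at MTRNR2L8. Only 6 reads of MTRNR2L1 covered position 1131, the first base of the stretch. Within the MTRNR2L1 stretch, 83.1% of the 623 reads of the peak with its 5′ end at position 1135 still matched the mitochondrial genome exactly.

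MTRNR2L2 had no such dominant peak. Its most abundant fragment covers positions 144 to 164, and the alignments over its middle held 633 reads, or 17.0% of the gene strand (15.8 to 18.2). A peak at positions 436 to 456 held 720 reads, or 19.3% (18.1 to 20.6), spread over more alignments. MTRNR2L8 had a peak with the same ends, 436 and 456, of 667 reads, although this was only 3.80% of its own reads. The stretch of positions 144 to 164 has 3 differing bases in MTRNR2L1, where 6 reads covered its middle base and 203 its last base. It has 1 differing base in MTRNR2L8, where no read covered the middle base.

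The border of the interval mattered for MTRNR2L2 alone. The mitochondrial sequence starts 11 nt before the interval does, at position 1 of the 16S gene, and 14 alignments with 1207 reads crossed this border. Of these reads, 1206 began at position 1, the first base of the 16S rRNA, and the most abundant alignment, of 21 nt at chr5:79946846-79946866, had 463 reads. It is more abundant than any alignment inside the interval, where the highest value was 188 reads. The same border had 9 reads at MTRNR2L8 and 0 at MTRNR2L1. With these alignments, MTRNR2L2 would have 4935 reads in place of 3728. Of the 4933 reads in its 16S stretch described below, which includes this border, 4050 had an exact mitochondrial match. Inside the interval, this held for 2881 of 3728 reads.

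The fragments of MTRNR2L1 and MTRNR2L8 were shorter than those of MTRNR2L2. The median length by reads was 16 nt at MTRNR2L1 (quartiles 15 and 19), 16 nt at MTRNR2L8 (15 and 20) and 22 nt at MTRNR2L2 (19 and 25). All reads of the series had a median of 22 nt with quartiles of 18 and 23. Reads under 18 nt made up 53.6% at MTRNR2L1, 67.1% at MTRNR2L8 and 13.3% at MTRNR2L2, although inserts of 20 to 40 nt had been selected.

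These lengths differed less outside the peak of the most abundant fragment of each copy, meaning the alignments over its middle base. Without this peak, the median was 23 nt at MTRNR2L1, 22 nt at MTRNR2L8 and 22 nt at MTRNR2L2. The numbers of gene-strand reads were then closer, with 3367 at MTRNR2L1, 3519 at MTRNR2L8 and 3095 at MTRNR2L2. At MTRNR2L2 the peak left out is that of 633 reads, and the larger one of 720 reads remains among the 3095. Per kb of copy these are 2165, 2728 and 2985 reads, so that MTRNR2L2, lowest by density with all reads, is highest without the peaks, while MTRNR2L8 is above MTRNR2L1 in both.

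Whether a fragment can be assigned to a nuclear copy depends on the bases at which the copy differs from the mitochondrial gene. At MTRNR2L1, 89.3% of gene-strand reads (88.9 to 89.8) lay in alignments whose sequence occurs without a difference in the mitochondrial genome. The figure was 77.3% at MTRNR2L2 (75.9 to 78.6) and 92.7% at MTRNR2L8 (92.3 to 93.0). If the same lengths were laid at every position of the copies, such windows would make up 22.2%, 33.0% and 42.1%. The reads therefore lay in the mitochondria-identical parts of each copy more often than the make-up of the copy gives. Without the peak of the most abundant fragment, the values were 45.8% at MTRNR2L1 against 14.9% of windows, 74.5% against 33.1% at MTRNR2L2 and 80.3% against 34.5% at MTRNR2L8.

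Some reads lay at sequences specific to a copy, meaning no mitochondrial match and 1 match in the nuclear genome. These were 1789 reads at MTRNR2L1, or 10.1% of its gene strand (9.62 to 10.5). MTRNR2L8 had 1009 such reads, or 5.75%, and MTRNR2L2 had 269, or 7.22% (6.43 to 8.09). Windows of the same lengths were specific in 33.9% at MTRNR2L1, 26.6% at MTRNR2L2 and 20.7% at MTRNR2L8, so reads were fewer than windows at all 3 copies. Outside the peak of the most abundant fragment, the specific share of reads was 50.9% at MTRNR2L1 against 65.8% of windows, 6.82% against 26.4% at MTRNR2L2 and 11.8% against 36.6% at MTRNR2L8. For these reads the reference gives 1 exact place, but reads aligned with a mismatch and bases that differ between K562 and the reference were not tested.

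The reads at alignments whose reference sequence differs from the mitochondrial gene by 1 base were concentrated at few bases. At MTRNR2L1, 1201 of 1767 such reads (68.0%) covered position 1340 as the differing base, which lies in the peak beside the dominant one. That peak had 1300 reads of median 26 nt, of which 92.1% had 1 nuclear match and 20.5% an exact mitochondrial match. At MTRNR2L2, position 172 accounted for 270 of 766 reads (35.2%). At MTRNR2L8, position 610 accounted for 265 of 703 reads (37.7%) and position 1161 for 181. These reads were thus unevenly spread over the 26, 22 and 20 sites that had any. The sites are those of the reference at each alignment, and whether the reads carried the nuclear or the mitochondrial base cannot be told apart. Reads at alignments with 2 or more differing bases numbered 130 at MTRNR2L1, 81 at MTRNR2L2 and 583 at MTRNR2L8.

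Many fragments also match more than 1 place of the nuclear genome. Such reads made up 83.1% of the gene strand at MTRNR2L1, 77.4% at MTRNR2L2 and 86.8% at MTRNR2L8, although the methods describe that reads with a unique alignment were kept. The most abundant sequence of MTRNR2L1 had 6075 reads there and 6488 reads at its other exact match, chr4:90653118-90653132, so MTRNR2L1 held 48.4% (47.5 to 49.2). The 14-nt core occurs at 5 nuclear places, 3 of them in stretches that resemble the 16S gene, and each had between 1390 and 1461 reads. The values thus lie close to an even split over all places with the same sequence.

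The same held at the other copies. The 15-nt sequence of MTRNR2L8 had 3309 reads there, 3100 at chr19:15048046-15048060 and 3121 at chr2:148022794-148022808. Its 16-nt form had 3139 reads at MTRNR2L8 and 3324 at the remaining place on chromosome 2. The place on chromosome 19 is not in a stretch that resembles the 16S gene. The 21-nt sequence of positions 436 to 456 had 77 reads at MTRNR2L2, 77 at MTRNR2L8 and 69 at chr3:96336624-96336644. The most abundant sequence of MTRNR2L2, in contrast, occurs once in the nuclear genome and had all 188 reads there.

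Over all such sequences with 2 to 20 places and at least 10 reads per place on average, 119 were found at the copies, and all 119 were listed at every place. The average counts a place without reads as 0, so a sequence missing at a place passes this minimum less easily. The result is thus partly set by the minimum. Sequences with fewer reads can be missing at a place, as the stretches without alignments described below show. The most abundant sequences identical to those of the stretches had 14 and 16 reads at MTRNR2L2. The reads at the copy divided by an even share had a median of 1.03 at MTRNR2L1 (range 0.75 to 1.62), 0.98 at MTRNR2L2 (0.762 to 1.41) and 1.03 at MTRNR2L8 (0.652 to 1.36). How reads with several equal matches were assigned was not tested further, and their number at a copy cannot be told apart from that of the other places.

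Some parts of the copies had no alignment in the values used here. On MTRNR2L1 this held for positions 918 to 1108, a stretch of 191 nt, and on MTRNR2L8 for positions 888 to 1119, a stretch of 232 nt, on either strand. The stretches hold 50 and 80 windows of 20 nt that match the mitochondrial genome exactly. Sequences identical to those in the stretches were listed at MTRNR2L2, 122 of them with 193 reads for MTRNR2L1 and 244 with 485 reads for MTRNR2L8. Fragments with the sequence of these stretches were thus listed, but not at MTRNR2L1 or MTRNR2L8, and the cause was not tested. MTRNR2L2 had a stretch without gene-strand reads at positions 615 to 723, which has 0 windows that match the mitochondrial genome.

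The humanin reading frame lies in these stretches. In MTRNR2L1 the annotated coding sequence is chr17:22023388-22023459, which is positions 963 to 1034 of the 16S gene, and neither it nor the same positions of MTRNR2L8 had an alignment. The same positions span 78 nt in MTRNR2L2, against 72 nt in MTRNR2L1, and had 208 alignments with 352 reads there. Of these, 199 reads matched the mitochondrial genome exactly, and the most abundant alignment had 14 reads. The fragments over these positions of MTRNR2L2 were thus many and each of low abundance. Whether MTRNR2L2 has an intact reading frame there was not tested. Fragments of this length say nothing of translation.

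The copies were then set beside other copies in the nuclear genome. They were chosen for their abundance, so their rank is a description. A search with the 16S gene found 53 stretches of at least 300 nt on the nuclear chromosomes, with identities from 68.3% to 95.04%, and the 3 copies are among them. They held 74.2% of the 54304 reads of all 53, where MTRNR2L2 counts with 4933 reads because its stretch includes the 5′ border. The minimum of 300 nt leaves out shorter stretches, some of which hold the dominant sequences of the copies. The most abundant MTRNR2L1 sequence had 6488 reads in a stretch of 224 nt on chromosome 4. The 16-nt sequence of MTRNR2L8 had 3324 reads in a stretch of 89 nt on chromosome 2. The share and the ranks thus hold for the 53 stretches only. The other 50 stretches all had reads, with a median of 97.6 reads per kb and a range of 1.49 to 4551. The highest of these was chr3:96336032-96337079, which is 95.04% identical to the 16S gene and had 4769 reads. Its density was above that of MTRNR2L2 inside the interval, 3595, but below that of the MTRNR2L2 stretch with the 5′ border, 4808. The density on chromosome 3 was also above those of MTRNR2L1 and MTRNR2L8 without their peaks, 2165 and 2728.

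Among the other family members that GENCODE names on GRCh37, MTRNR2L6 had 475 reads per kb, MTRNR2L10 had 228 and MTRNR2L3 had 224. Their identities with the 16S gene were 84.9%, 80.4% and 78.7%. Stretches without a name there can be more similar, such as chr6:62284008-62284534, which was 90.7% identical and had 1099 reads per kb. The opposite strand had 3 reads beside 663 at MTRNR2L6, 9 beside 340 at MTRNR2L10 and 4 beside 344 at MTRNR2L3. It had 6 beside 579 at this stretch of chromosome 6, and 509 beside 4769 at chr3:96336032-96337079. A high share of reads on the 16S strand was thus not particular to the 3 copies. In the other 50 stretches together, 82.2% of reads had an exact mitochondrial match, which is within the range of the 3 copies. The long mitochondrial insert at the start of chromosome 1, chr1:564442-570302, had 5939 reads per kb on its plus strand and 87.1% with an exact mitochondrial match, but only 67.3% of its reads lay on that strand.

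Genes that act with humanin or with the 16S rRNA were set beside the copies by reads on their exons. Of 9 genes known for humanin binding or signalling, 8 had reads, while 18346 of all 20163 protein-coding genes had reads. The 9 genes had a median of 2.94 reads per kb of exon, the same as the median of 2.94 over the 20163 genes. IL6ST, which encodes the receptor subunit gp130, had 274 reads, or 22.7 reads per kb. TRIM11, a ubiquitin ligase, had 129 reads, or 15.2 per kb. BAX, a promoter of apoptosis that humanin is known to bind, had 14 reads, BID 13, IL27RA 10, FPR2 4, CNTFR 3 and IGFBP3 1, while FPR3 had 0, which allows up to 3 reads. All 49 genes of the MRPL series, which encode proteins of the large mitochondrial ribosomal subunit, had reads, with a median of 12.9 per kb and a range of 3.13 to 604. The densities of these genes were below those of the 3 copies in every case. Most reads of the copies, however, also match the mitochondrial genome exactly, so their densities cannot be taken as those of the nuclear copies alone.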

How the data were processed

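Small RNA of 3 batches of K562 cells was sequenced, and the values pool them. The submitters' processing notes name Bowtie2 2.2.9 and GRCh37 (hg19), and the methods describe uniquely mapping reads. The authors deposited a whole-number count of reads and an RPKM for every combination of start, end and strand. Sequences of the alignments were read from the GRCh37 primary assembly. Counts were divided by the number of near neighbours (ends that differ by 3 nt or less in sum), and each copy was aligned globally to the mitochondrial 16S gene (match 2, mismatch -3, gap opening -5, gap extension -2). Exact matches of every sequence were counted on both strands of the nuclear and mitochondrial chromosomes. Nuclear 16S stretches of at least 300 nt were found with BLAST 2.17.0 at an E-value of at most 1e-20. Total depth was 47670688 recovered reads, and shares carry 95% Wilson intervals.

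No test was made, as the batches are pooled and the members and lists were chosen with earlier results of these data known. Values are given for the 3 members, every other MTRNR2L gene of GENCODE on GRCh37 (MTRNR2L3, MTRNR2L6 and MTRNR2L10), the 5 alignments of most reads on each strand, a list of humanin partners, the MRPL genes and 5 genes that mark K562. Sequences are the 3 alignments of most reads per copy of at most 30 nt, of which 1 at MTRNR2L8 is not printed, and the 2 most abundant specific ones, which were added later. Alternatives were deposited reads, minima of 2 reads and 18 nt, alignments that overlap the interval by at least 1 nt, 1 nuclear match, counting by alignments and mismatches of the pairwise alignment. The removal of the peak of the most abundant fragment, 1 nuclear match for the shares and overlap for the lengths were chosen after seeing the data. Python 3.11.15, pandas 2.3.3, Biopython 1.88, samtools 1.23.1 and GENCODE release 44 were used, and the steps were tested on simulated data. The HEK293 samples were not analysed here. A result on the surroundings of MTRNR2L2 is not reported here.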

Additional observations from a re-analysis of the deposited data

How the results depend on the processing

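Of 66 alternatives, 23 left a value the same and 43 moved it. The same meant within the counting interval for a share, within 1.5 times for a read number and an equal median for a length. Gene-strand reads of MTRNR2L1 were 337876 as deposited, 8257 at 18 nt or longer, 3009 with 1 nuclear match and 3367 without the peak of the most abundant fragment. Those of MTRNR2L8 were 300628, 5772, 2308 and 3519 in the same order, and those of MTRNR2L2 were 47217 as deposited and 841 with 1 nuclear match. The share of the gene strand, for MTRNR2L1, MTRNR2L2 and MTRNR2L8 in turn, was 99.8%, 99.9% and 99.7% by deposited reads, 99.4%, 99.5% and 99.3% at 2 or more reads, 98.8%, 99.6% and 98.5% at 18 nt or longer, and 96.0%, 98.7% and 96.0% by alignments. The share of reads that differ from the mitochondrial genome was 10.7%, 22.7% and 7.33%. It became 8.98%, 18.8% and 6.57% by deposited reads, 45.1%, 32.2% and 25.1% by alignments, 22.6%, 25.8% and 22.1% at 18 nt or longer, 54.2%, 25.5% and 19.7% without this peak, and 59.5%, 32.0% and 43.7% with 1 nuclear match. The order of the copies by this share therefore depends on the counting: MTRNR2L2 is highest by reads, and MTRNR2L1 by alignments, without the peak and with 1 nuclear match. The median length of MTRNR2L1 was 23 nt with each alignment counted once or without the peak and 17 nt by deposited reads. That of MTRNR2L8 was 22 nt with each alignment counted once or without the peak, and that of MTRNR2L2 was 21 nt with alignments that overlap the interval.

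No paired analysis was possible because the 3 batches are pooled in 1 column, which also leaves no batch to leave out. The reads carry no molecular identifiers. The values give positions and not the bases of reads, so a nuclear and a mitochondrial origin of a fragment that matches both exactly cannot be told apart. At 540 of 1092 alignments of MTRNR2L1, 726 of 1274 of MTRNR2L2 and 677 of 1333 of MTRNR2L8 on the gene strand, the value rests on 1 read. Over all alignments of the series, 73.6% rest on 1 read.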
